A study of Mus musculus with 40 samples.

Results

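Srebf1 and 9 other genes of fatty acid synthesis were followed across the duodenum, the ileum and the liver of mice with and without small bowel resection (SBR). The members are the main regulators and enzymes of the pathway, taken by name from the table: Srebf1, Mlxipl, Acly, Me1, Acaca, Fasn, Elovl5, Elovl6, Scd1 and Scd2. All 10 of 10 members were present in the table of 15958 genes, and all 10 passed the filter on low values in every tissue. RNA was sequenced from 40 libraries of male C57BL/6 wild-type mice operated on at 8 weeks of age. Sham vehicle mice had a sham operation and the vehicle, SBR vehicle mice had lost part of the proximal small bowel and took the vehicle, and SBR WUSTL0717 mice had the resection and 30 mg/kg of WUSTL0717 daily by gavage. WUSTL0717 is described by the study as a putative agonist of the liver X receptors (LXRs) that stays in the gut. Dosing began 3 weeks after surgery and lasted 7 weeks. There were 3 sham vehicle, 4 SBR vehicle and 4 SBR WUSTL0717 libraries of the duodenum, the same numbers of the ileum (post-anastomotic), and 5, 8 and 5 libraries of the liver. By the study's text, the sham operation also cut and rejoined the small bowel, without removing any. No sham group received WUSTL0717, so its effect was measured only after resection. The sample labels give a resection of 50 to 60% of the small bowel, whereas the study's text gives a larger share.

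Fatty acid synthesis turns citrate from the mitochondria into fat. ATP citrate lyase (Acly) splits citrate to acetyl-CoA, acetyl-CoA carboxylase (Acaca) makes malonyl-CoA from it in the committed step, and fatty acid synthase (Fasn) builds palmitate, with NADPH supplied in part by malic enzyme (Me1). Elovl6 lengthens palmitate to stearate, Elovl5 lengthens polyunsaturated chains, and the stearoyl-CoA desaturases (Scd1, Scd2) place the double bond that makes oleate. Srebf1 encodes SREBP1, the transcription factor that responds to insulin and sterol signals and switches these enzymes on. Mlxipl encodes ChREBP, a further factor, which responds to carbohydrate. LXRs sense oxysterols and are known to raise transcription of Srebf1 and of several of its targets, which is why LXR agonists that reach the liver are known for raising liver fat.

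Of the members, 8 had a promoter sequence in the RefSeq table used here (GRCm38.p6), with 12 start sites among them, and Scd1 and Scd2 were not analysed in this respect. The start site of Srebf1 furthest downstream and that of Fasn are shown, because both windows hold the letters of a known type of LXR binding element. Each line gives the 250 bases before the start site, 5′ to 3′ on the strand of the gene, which is the minus strand for both. Capitals mark matches, on either strand, to the half-sites GGTTA and GGTCA in this order with 5 bases of any kind between them (the LXR response element), CCAAT (the CCAAT box bound by NF-Y) and GGGCGG (the GC box bound by Sp1).
Srebf1, chr11:60210472-60210721: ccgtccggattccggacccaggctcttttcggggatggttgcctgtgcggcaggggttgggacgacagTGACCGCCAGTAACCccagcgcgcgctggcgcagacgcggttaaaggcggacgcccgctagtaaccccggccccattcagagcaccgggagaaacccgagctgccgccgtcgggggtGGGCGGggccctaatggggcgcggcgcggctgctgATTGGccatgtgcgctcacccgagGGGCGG
Fasn, chr11:120824548-120824797: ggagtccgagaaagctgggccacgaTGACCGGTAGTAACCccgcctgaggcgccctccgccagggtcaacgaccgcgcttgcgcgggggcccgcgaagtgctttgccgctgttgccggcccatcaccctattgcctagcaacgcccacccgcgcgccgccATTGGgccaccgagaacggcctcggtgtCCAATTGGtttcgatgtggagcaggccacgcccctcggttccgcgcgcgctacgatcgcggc

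The LXR response element lay 182 to 168 bases before the Srebf1 start and 225 to 211 bases before the Fasn start. Its letters were chosen after both sequences had been seen, so these 2 matches are no test. The same letters were found in 15 of 32851 windows of all genes (0.0457%). CCAAT stood in 6 of the 12 member windows, against 33.8% of all windows, and 3 times in the Fasn window, where the last 2 matches overlap on opposite strands. The GC box stood in 5 of the 12, against 32.7% of all windows. The E-box CACGTG was found in 2 member windows (Mlxipl and Elovl5; 6.02% of all windows) and TCACNCCAC, a form of the sterol regulatory element, in 1 (Mlxipl; 1.05%). A match describes letters and not a bound site.

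Values are log2 TPM (transcript abundance scaled for gene length and library size), corrected by the authors for batch. On a plain log2 scale 1 unit is a change by a factor of 2. The correction also rescaled each gene, so differences here do not convert exactly by that factor. The intestinal libraries were 1 batch and the liver libraries the other, so the correction set liver against intestine gene by gene and no level or effect was tested between them. The duodenum and ileum labels held against their markers. The 4 duodenal identity genes averaged 4.53 to 5.21 in the duodenum and 0.27 to 1.68 in the ileum. The 2 ileal identity genes averaged -0.58 to 0.53 in the duodenum and 5.25 to 7.87 in the ileum. Read totals were not given, so depth is unknown. Differences are given as log2 difference ± SE with the adjusted p of limma over all genes tested in that fit, and a gene was called at an adjusted p under 0.05. Nothing in the labels says whether the duodenum and ileum libraries came from the same mice. In such bulk samples, fewer cells of a type and less RNA per cell cannot be told apart.

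After WUSTL0717, Scd1 rose in both gut regions to overlapping high levels, by 6.34 in the duodenum and 3.09 in the ileum, and Srebf1 rose in the ileum by 3.39 and Me1 in the duodenum by 2.87. In each region 2 of 10 members were called, all higher. The share of all tested genes called higher was 0.252% in the duodenum and 0.0697% in the ileum. In the duodenum all 10 members had a positive difference from SBR vehicle and in the ileum 9 of 10, with a median difference over the members of 1.03 and 1.24, against 0.04 and 0.00 over all genes. Acly and Elovl6 showed the smallest differences in both regions.

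**Figure D1:**
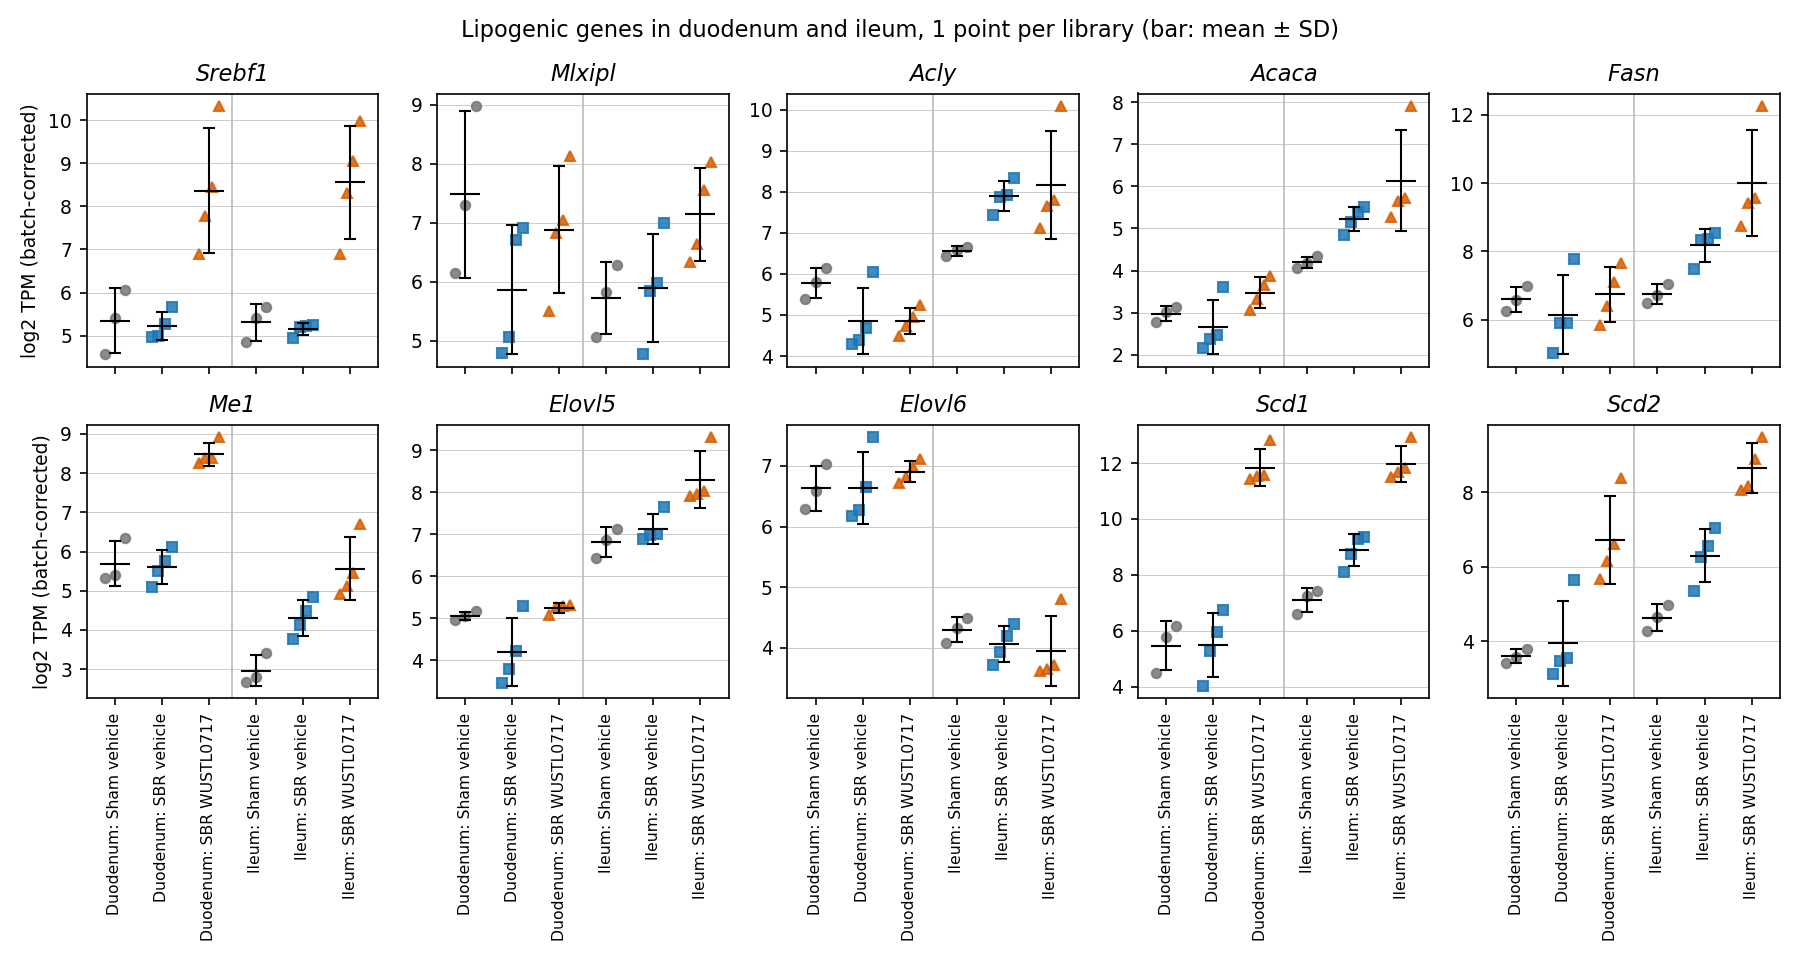
Each panel plots 1 gene in log2 TPM (vertical axis, its own range) for the 3 duodenal and the 3 ileal groups, with 1 point per library and a bar for the mean ± SD. Scd1 lies between 11.42 and 12.92 in all 8 WUSTL0717 libraries and at or below 9.37 in every other intestinal library, and Elovl6 is higher in the duodenum than in the ileum in all groups.

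Srebf1, the regulator, lay at 4.57, 5.40 and 6.06 in the duodenum of sham vehicle mice and at 5.66, 4.97, 5.28 and 5.00 after SBR with vehicle. With WUSTL0717 the duodenal libraries read 6.89, 8.45, 7.79 and 10.33. Every treated library was thus above every vehicle library, but the treated libraries spread over more than 3 units and the difference of 3.13 ± 0.64 from SBR vehicle was not called (limma adjusted p = 0.0887; exact two-sided permutation p = 0.0286, the smallest that 4 against 4 allows). It was called without WUSTL0717 library 1, the lowest of the 4 (adjusted p = 0.0478). In the ileum Srebf1 was 4.84, 5.40 and 5.68 in sham vehicle, 5.21, 5.23, 5.25 and 4.96 in SBR vehicle, and 6.89, 9.05, 8.31 and 9.97 in SBR WUSTL0717. It rose there by 3.39 ± 0.52 (adjusted p = 0.0427), a call that held without WUSTL0717 library 1 and was lost without each of the other 7 libraries compared (adjusted p up to 0.16), while the difference stayed between 2.92 and 3.95. The effect on Srebf1 differed between regions by -0.26 ± 0.86 (95% interval -2.04 to 1.52), an interval wide enough to hold differences in either direction.

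Mlxipl, the carbohydrate-responsive regulator, varied widely within groups. Its duodenal values were 6.15, 7.30 and 8.98 in sham vehicle, 6.70, 5.06, 6.92 and 4.79 in SBR vehicle, and 8.13, 5.51, 6.83 and 7.04 in SBR WUSTL0717. The ileal values were 5.07, 6.28 and 5.83, then 5.84, 7.00, 4.77 and 5.97, then 6.33, 6.63, 8.03 and 7.56 in the same order of groups. Groups overlapped in both regions between SBR vehicle and SBR WUSTL0717. The difference was 1.01 ± 0.74 in the duodenum and 1.24 ± 0.50 in the ileum, neither called (limma adjusted p = 1 and 0.664), and the duodenal difference of Mlxipl was 0.59 without WUSTL0717 library 1 and 0.65 without SBR vehicle library 4.

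Me1, the malic enzyme that supplies NADPH, was tight within groups in the duodenum. Sham vehicle libraries read 5.39, 6.35 and 5.34, SBR vehicle libraries 5.50, 5.75, 5.08 and 6.11, and SBR WUSTL0717 libraries 8.39, 8.25, 8.38 and 8.91. It rose with WUSTL0717 by 2.87 ± 0.39 (adjusted p = 0.0126). Leaving out single libraries kept the difference between 2.70 and 3.04, and the call was lost without SBR vehicle library 3 or WUSTL0717 library 3 or 4, with an adjusted p of at most 0.0658. In the ileum Me1 read 3.41, 2.68 and 2.81 in sham vehicle, 4.85, 3.77, 4.14 and 4.49 in SBR vehicle, and 5.12, 6.71, 5.45 and 4.93 in SBR WUSTL0717. These 3 groups formed an ascending order without overlap. The step with WUSTL0717 was 1.24 ± 0.39 and was not called (adjusted p = 0.545). Its effect in the duodenum exceeded that in the ileum by 1.63 ± 0.55, which did not pass the test across all genes either (limma adjusted p = 1, with 0.0251% of genes called).

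Scd1, the main desaturase that makes oleate and palmitoleate, gave the clearest response. The duodenum held 6.15, 5.76 and 4.48 in sham vehicle, 6.73, 5.28, 4.02 and 5.96 in SBR vehicle, and 11.42, 11.53, 11.58 and 12.83 in SBR WUSTL0717. It rose by 6.34 ± 0.61 (adjusted p = 0.00306), and the call held without each library in turn (adjusted p at most 0.0201). In the ileum the values were 7.23, 6.61 and 7.43 in sham vehicle, 9.37, 8.12, 9.30 and 8.76 in SBR vehicle, and 11.50, 12.92, 11.66 and 11.84 in SBR WUSTL0717. The rise was 3.09 ± 0.40 (adjusted p = 0.022), and the call was lost without SBR vehicle library 1, 2 or 4 or WUSTL0717 library 3 or 4, with an adjusted p of at most 0.0888. The treated libraries of both regions overlapped fully, so the larger difference in the duodenum went with its lower starting level. That gap between regions was 3.25 ± 0.76 (95% interval 1.67 to 4.82) and was not called (limma adjusted p = 0.356). Markers of the exocrine pancreas (7 of 8 analysed) varied widely in the duodenum, with a mean of 3.73 to 7.57 in sham vehicle, 1.94 to 6.93 in SBR vehicle and 4.65 to 7.73 in SBR WUSTL0717 libraries, and their part in the duodenal results was not tested.

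Scd2, a desaturase of the brain and of growing tissues, is a neighbour of Scd1 on chromosome 19, 87591 bases away in GENCODE M21. Its duodenal values were 3.58, 3.43 and 3.81 in sham vehicle, 5.64, 3.47, 3.56 and 3.12 in SBR vehicle, and 6.15, 6.63, 5.68 and 8.39 in SBR WUSTL0717. In the ileum they were 4.66, 4.27 and 4.98, then 6.27, 6.55, 7.04 and 5.36, then 8.06, 9.48, 8.18 and 8.89. WUSTL0717 libraries lay above all SBR vehicle libraries in both regions, by 2.77 ± 0.65 in the duodenum (limma adjusted p = 0.167) and 2.35 ± 0.41 in the ileum (adjusted p = 0.1), and neither was called. The paralogs share sequence, and reads were counted only where they aligned uniquely, so their levels relative to each other are less certain than their changes.

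Fasn, the synthase, and the enzymes just before it showed less. In the ileum Fasn was 6.72, 6.48 and 7.06 in sham vehicle, 8.53, 8.37, 8.33 and 7.47 in SBR vehicle, and 8.76, 12.26, 9.40 and 9.55 in SBR WUSTL0717, without overlap between the groups. The difference of 1.82 ± 0.62 between WUSTL0717 and vehicle was not called (adjusted p = 0.58) and fell to 1.06 ± 0.33 without the library at 12.26. In the duodenum Fasn read 6.56, 6.24 and 6.97, then 7.78, 5.90, 5.01 and 5.88, then 7.09, 6.38, 5.83 and 7.66, and all 3 groups overlapped. Acaca differed by 0.82 ± 0.37 in the duodenum and 0.91 ± 0.48 in the ileum, again with overlap and without a call, and the ileal difference of Acaca was 0.32 ± 0.23 without WUSTL0717 library 2. Acly, the entry enzyme, did not move beyond its spread: its difference had a 95% interval of -0.94 to 0.95 in the duodenum and -0.87 to 1.42 in the ileum.

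Of the elongases, Elovl5 in the ileum was 6.98, 6.88, 7.64 and 7.00 in SBR vehicle and 8.02, 9.30, 7.92 and 7.96 in SBR WUSTL0717. The groups did not overlap, and the difference of 1.18 ± 0.35 was not called (limma adjusted p = 0.5). In the duodenum Elovl5 lay between 5.08 and 5.33 in the treated libraries, between 4.96 and 5.16 in the sham libraries and between 3.46 and 5.31 in the SBR vehicle libraries. Elovl6 stayed within 6.17 to 7.47 in all 11 duodenal libraries and within 3.62 to 4.81 in all 11 ileal libraries, and its 95% interval for WUSTL0717 against vehicle was -0.58 to 1.12 in the duodenum and was -0.77 to 0.54 in the ileum. Counted by overlap, 4 of 10 members in the duodenum (Srebf1, Me1, Scd1, Scd2) and 6 of 10 in the ileum (Srebf1, Me1, Scd1, Scd2, Fasn, Elovl5) had every treated library above every vehicle library, where 2.11% and 2.56% of all tested genes did so.

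**Figure D2:**
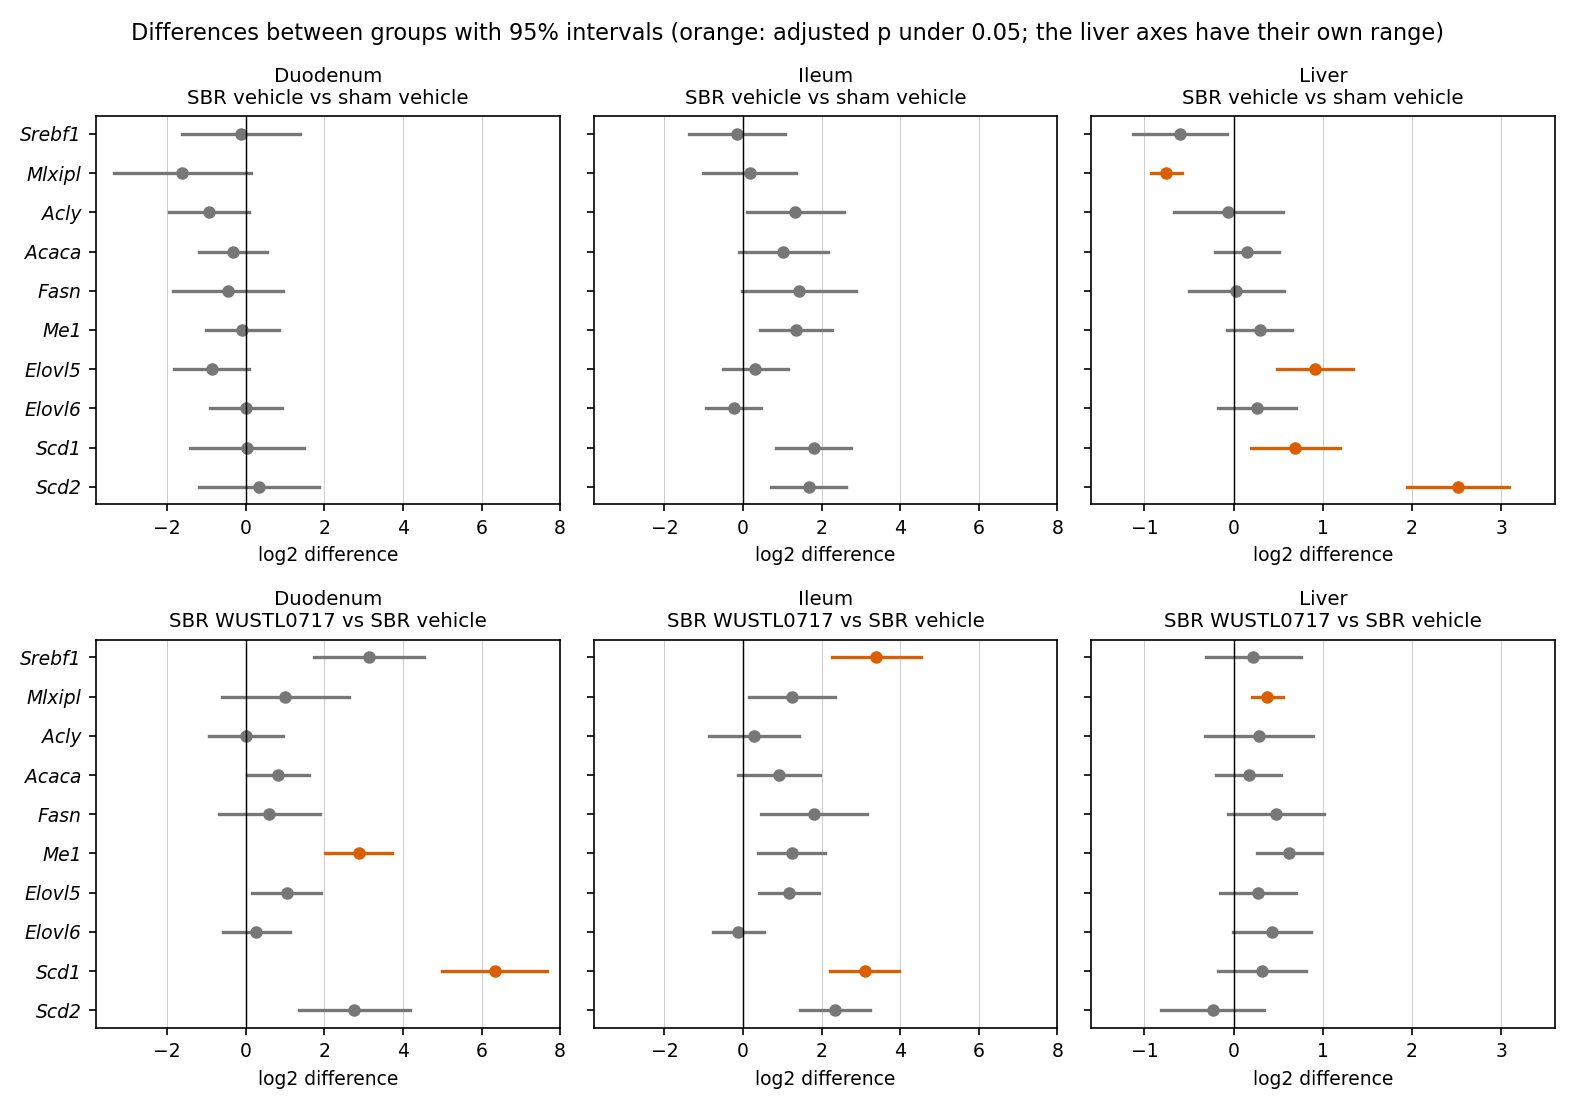
Points give the log2 difference between groups for each gene (rows) and lines its 95% interval, for SBR vehicle against sham vehicle (upper panels) and SBR WUSTL0717 against SBR vehicle (lower panels) in the duodenum, ileum and liver; orange marks an adjusted p under 0.05. The largest value is that of Scd1 in the duodenum at 6.34, and the liver panels, which have a narrower axis, show Scd2 at 2.51 after SBR and Mlxipl lower after SBR and higher with WUSTL0717.

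Against sham vehicle, WUSTL0717-treated mice had 2 called members in the duodenum (Scd1 at 6.38 ± 0.66 and Me1 at 2.79 ± 0.42; 0.749% of genes called higher) and 5 in the ileum (1.66% called higher). The ileal 5 were Scd1 at 4.89 ± 0.43, Scd2 at 4.02 ± 0.44, Srebf1 at 3.25 ± 0.56, Fasn at 3.24 ± 0.67 and Me1 at 2.59 ± 0.42, with limma adjusted p from 0.000383 to 0.03. These comparisons use the same treated libraries as those against SBR vehicle and are not independent of them. In the ileum the call of Fasn was lost without any of the 3 sham libraries or WUSTL0717 library 3 or 4 (limma adjusted p up to 0.13), that of Srebf1 without sham library 1 or 2 (up to 0.0835) and that of Me1 without sham library 2 (0.064), and Acaca was called without WUSTL0717 library 2 (1.35, adjusted p = 0.0315). In the duodenum the call of Me1 was lost without sham library 1 or 3 or WUSTL0717 library 4 (up to 0.0721), and Srebf1 was called without WUSTL0717 library 1 (0.0424). The calls of Scd1 in both regions and of Scd2 in the ileum held without each library. In the duodenum 121 genes were called in all, and Acly stood 0.92 ± 0.47 lower than in sham without overlap and without a call. Of all genes tested there, 12.8% lay wholly below sham, and the median difference of all genes was -0.32.

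Resection with vehicle was compared with sham vehicle next, using the same SBR vehicle libraries as above, and no member was called in either gut region. In the duodenum 7 of 10 members had a negative difference between SBR vehicle and sham vehicle, from -1.61 for Mlxipl to 0.34 for Scd2, but the median of all genes was itself shifted by -0.36, and after centring libraries on their medians only 4 of 10 were negative. No gene at all was called there by limma (0%), where 16.1% had an unadjusted p under 0.05 and 96 genes were called after centring, none of them a member. SBR vehicle library 1 was the highest of its 4 in 8 members, among them Scd2 at 5.64 and Fasn at 7.78. Leaving it out still gave no called member.

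In the ileum 6 of 10 members were higher in every SBR vehicle library than in every sham vehicle library, against 6.73% of all tested genes. They were Acly (1.33 ± 0.57), Acaca (1.03 ± 0.52), Fasn (1.42 ± 0.67), Me1 (1.35 ± 0.42), Scd1 (1.80 ± 0.43) and Scd2 (1.67 ± 0.44). The smallest limma adjusted p among them was 0.136, for Scd1, so none was called (0.241% of genes were called higher). Acly showed the step plainly, with 6.65, 6.43 and 6.59 in sham vehicle and 7.91, 7.87, 8.34 and 7.44 in SBR vehicle. Acaca moved from 4.34, 4.17 and 4.07 to 5.40, 4.85, 5.51 and 5.14. Srebf1, in contrast, had a 95% interval of -1.36 to 1.07, Mlxipl of -1.01 to 1.35 and Elovl6 of -0.94 to 0.47. The effect of SBR differed between duodenum and ileum by -2.26 ± 0.76 for Acly and -1.76 ± 0.82 for Scd1, and no member passed that test (limma adjusted p from 0.263 to 0.991, with 0.0754% of genes called).

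Markers of fat cells moved with several ileal members, and so did markers of hepatocytes. Of 7 adipocyte markers 3 were analysed (Cidec, Cfd, Fabp4), and Adipoq, Plin1, Lep and Retn were not analysed here. Their mean ranged from 0.92 to 3.64 in sham vehicle, from 3.75 to 4.07 in SBR vehicle and from 4.83 to 6.39 in SBR WUSTL0717 libraries of the ileum, in the same order of groups as Fasn, Me1 and Scd1. Ileal WUSTL0717 library 2 had the highest marker level, with Fabp4 at 5.75 and Cfd at 6.62, and also the highest Fasn, Acly (10.09), Acaca (7.91), Me1, Elovl5, Elovl6, Scd1 and Scd2, but not the highest Srebf1 or Mlxipl. The same library held Cyp2e1 at 11.37 and Alb at 12.70, and its mean over 6 hepatocyte markers was 10.04, against 6.19 to 7.44 in SBR vehicle. The batch adjustment set the level of these genes in the gut against the liver, so only differences among intestinal libraries are read. Without WUSTL0717 library 2, 1 member was called between WUSTL0717 and vehicle in the ileum, Scd1 at 2.78 ± 0.36 (limma adjusted p = 0.0312). Srebf1 then stood at 3.23 ± 0.57 (adjusted p = 0.125). In the duodenum the adipocyte markers ranged from 2.23 to 3.09, 2.55 to 3.39 and 2.91 to 3.65 in the same order of groups. Within ileal groups, the hepatocyte marker mean correlated with Me1 at 0.89, Acaca at 0.88 and Acly at 0.77. The adipocyte marker mean gave 0.53, 0.46 and 0.51 for the same genes. For Fasn the hepatocyte value was 0.73 against 0.60 with the adipocyte markers, and for Scd1 0.72 against 0.65. Scd2 (0.27 against 0.47), Srebf1 (0.02 against 0.09) and Mlxipl (-0.45 against -0.27) had the lower value with the hepatocyte markers. Within duodenal groups, the adipocyte marker mean correlated with the members from -0.19 (Mlxipl) to 0.80 (Scd1), with Acaca and Me1 at 0.67. The part of both marker lists in the results was not tested.

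**Figure D3:**
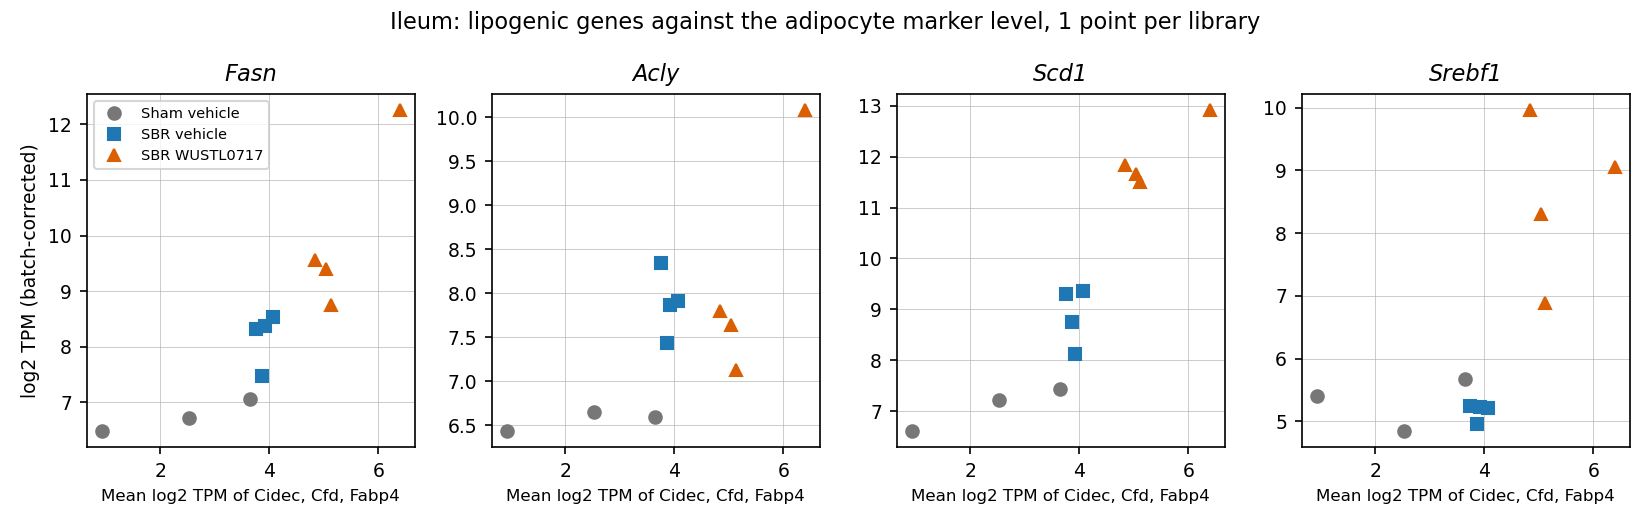
Each panel sets the log2 TPM of 1 gene (vertical axis) in the 11 ileal libraries against the mean log2 TPM of the adipocyte markers Cidec, Cfd and Fabp4 (horizontal axis), with symbols for the 3 groups. WUSTL0717 library 2, at 6.39 on the horizontal axis, has the highest Fasn and Acly, while Srebf1 spreads from 6.89 to 9.97 over the treated libraries and is highest in the library with the lowest marker level among them.

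Members also had a regional pattern that did not depend on treatment alone. In sham vehicle mice, Me1 was higher in the duodenum than in the ileum by 2.73 ± 0.45 and Elovl6 by 2.33 ± 0.39, while Elovl5 was lower there (-1.75 ± 0.44; limma adjusted p = 0.000224, 0.000259 and 0.01), and 14.6% of all genes were called. The median difference of all genes was -0.52, -0.98 and -0.95 in the 3 groups, so relative to that median the sham differences were 3.25, 2.85 and -1.23. The split of called genes was 610 higher in the duodenum to 1721 lower in sham vehicle, 1078 to 7990 in SBR vehicle and 1136 to 7759 in SBR WUSTL0717, and 1177 to 843, 2637 to 2311 and 2522 to 2215 after centring. In SBR vehicle mice 8 of 10 members were called, where 56.9% of all genes were. Of these, Acly (-3.04 ± 0.50), Acaca (-2.57 ± 0.44), Fasn (-2.03 ± 0.63), Elovl5 (-2.93 ± 0.38), Scd1 (-3.39 ± 0.54) and Scd2 (-2.36 ± 0.56) were lower in the duodenum, and relative to the median of all genes these stood between -1.06 and -2.41. Me1 and Elovl6 were again higher there, by 1.30 ± 0.39 and 2.58 ± 0.34.

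In WUSTL0717-treated mice 7 of 10 members were called between regions (55.9% of all genes), in the same direction for each of them as in SBR vehicle. Scd1 was the member that had been called in SBR vehicle and was not called here, at -0.14 ± 0.54 with a 95% interval of -1.25 to 0.97, and relative to the median of all genes its difference was 0.81. Acly (-3.31 ± 0.50) and Fasn (-3.25 ± 0.63) were furthest apart, and without ileal WUSTL0717 library 2 Fasn stood at -2.50 ± 0.53. Srebf1 did not differ between duodenum and ileum beyond its spread in any of the 3 groups, with 95% intervals of -1.42 to 1.49, -1.19 to 1.33 and -1.45 to 1.07.

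**Figure D4:**
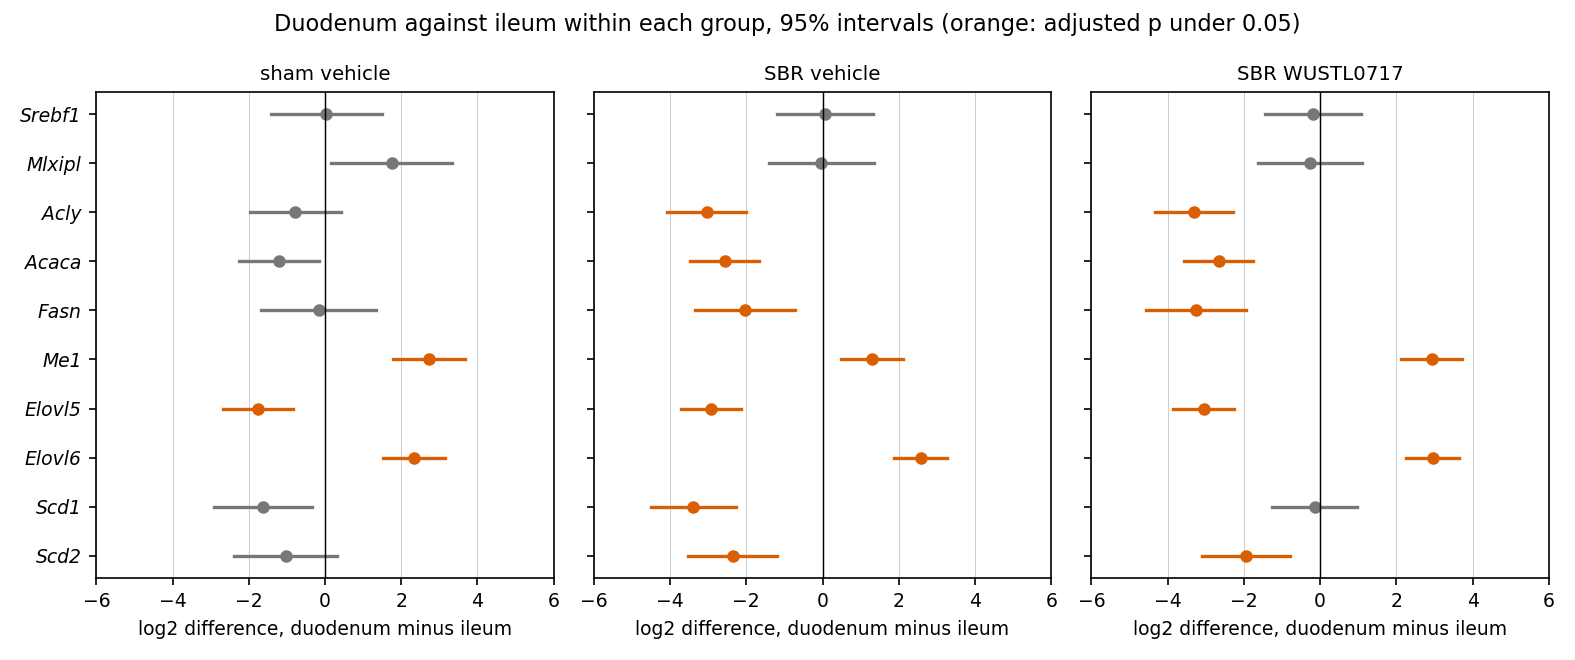
Points give the log2 difference between duodenum and ileum for each gene (rows) in each of the 3 groups of mice, and lines the 95% interval; orange marks an adjusted p under 0.05. Me1 and Elovl6 lie right of 0 in all 3 panels, Elovl5 left of 0, and Srebf1 at 0.04, 0.07 and -0.19.

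In the liver, members were called in both directions after resection, and 1 member was called with WUSTL0717. Against SBR vehicle, 9 of 10 members had a positive difference with WUSTL0717. The median over the members was 0.30, against 0.02 over all genes. After SBR with vehicle, 3 of 10 members were higher (Scd2, Elovl5, Scd1) and Mlxipl was lower, where 37.4% of all genes were called higher and 4.47% lower. That split of 5953 higher to 710 lower became 3245 to 4580 when libraries were centred on their medians, since the median of all genes was shifted by 0.25, and 7 of 10 members had a positive difference before centring and 3 of 10 after it. A share of 4 in 10 members is close to the 41.9% of all genes called in either direction.

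Mlxipl in the liver gave the clearest separation of the 3 groups. Its lowest, median and highest values were 7.54, 7.70 and 7.75 in sham vehicle (n = 5), 6.65, 6.93 and 7.15 in SBR vehicle (n = 8), and 7.16, 7.32 and 7.44 in SBR WUSTL0717 (n = 5). No 2 groups overlapped. It fell by 0.75 ± 0.08 after SBR (limma adjusted p = 1.02e-06) and rose by 0.38 ± 0.08 with WUSTL0717 (adjusted p = 0.0173; exact permutation p = 0.000777, the smallest that 5 against 8 allows), where 1.44% of genes were called higher (229 higher to 423 lower, or 1830 to 1303 after centring). The highest SBR vehicle and the lowest WUSTL0717 library nearly touched, and the call with WUSTL0717 was lost without WUSTL0717 library 1, 2 or 3 (limma adjusted p up to 0.0645). Treated livers remained 0.38 ± 0.09 below sham (adjusted p = 0.00682).

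Scd2 changed most in the liver. It lay between 4.56 and 5.24 (median 4.71) in sham vehicle, between 6.10 and 7.98 (median 7.45) in SBR vehicle and between 6.31 and 7.56 (median 7.21) in SBR WUSTL0717. It rose by 2.51 ± 0.27 after SBR (limma adjusted p = 9.83e-07; 2.27 relative to the median of all genes), and WUSTL0717 against vehicle gave -0.24 ± 0.27. Elovl5 rose after SBR by 0.91 ± 0.20 (adjusted p = 0.00155) and Scd1 by 0.69 ± 0.24 (adjusted p = 0.0258), in each case with overlap between groups. Set against the shift of all genes these were 0.66 and 0.45. The call of Scd1 was lost after centring (limma adjusted p = 0.149) and without sham library 2 or 4 (up to 0.0697). Markers of hepatic stellate cells and cholangiocytes were also higher after SBR, with a mean over 5 of 5 genes of 3.14 to 3.89 in sham vehicle, 5.37 to 6.05 in SBR vehicle and 4.59 to 5.60 in SBR WUSTL0717. So were markers of dividing cells (4 of 4 genes, at 2.31 to 2.52, 2.96 to 3.82 and 2.53 to 3.53) and of haematopoietic cells (4 of 4, at 2.97 to 3.37, 3.51 to 3.96 and 3.34 to 3.91). With WUSTL0717 the group means of these lists were lower than with vehicle (4.93 against 5.75, 3.07 against 3.32 and 3.61 against 3.81). The part of these lists in the liver results was not tested. The mean over 6 of 6 hepatocyte markers was 7.75 to 8.10, 6.74 to 7.79 and 7.63 to 8.15 in the same groups. Exocrine pancreas markers averaged 7.68 in SBR vehicle library 7, where the median of that group was 2.35. The highest values were 2.45 in sham vehicle and 2.38 in SBR WUSTL0717. The part of the pancreas markers in the liver results was not tested.

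**Figure D5:**
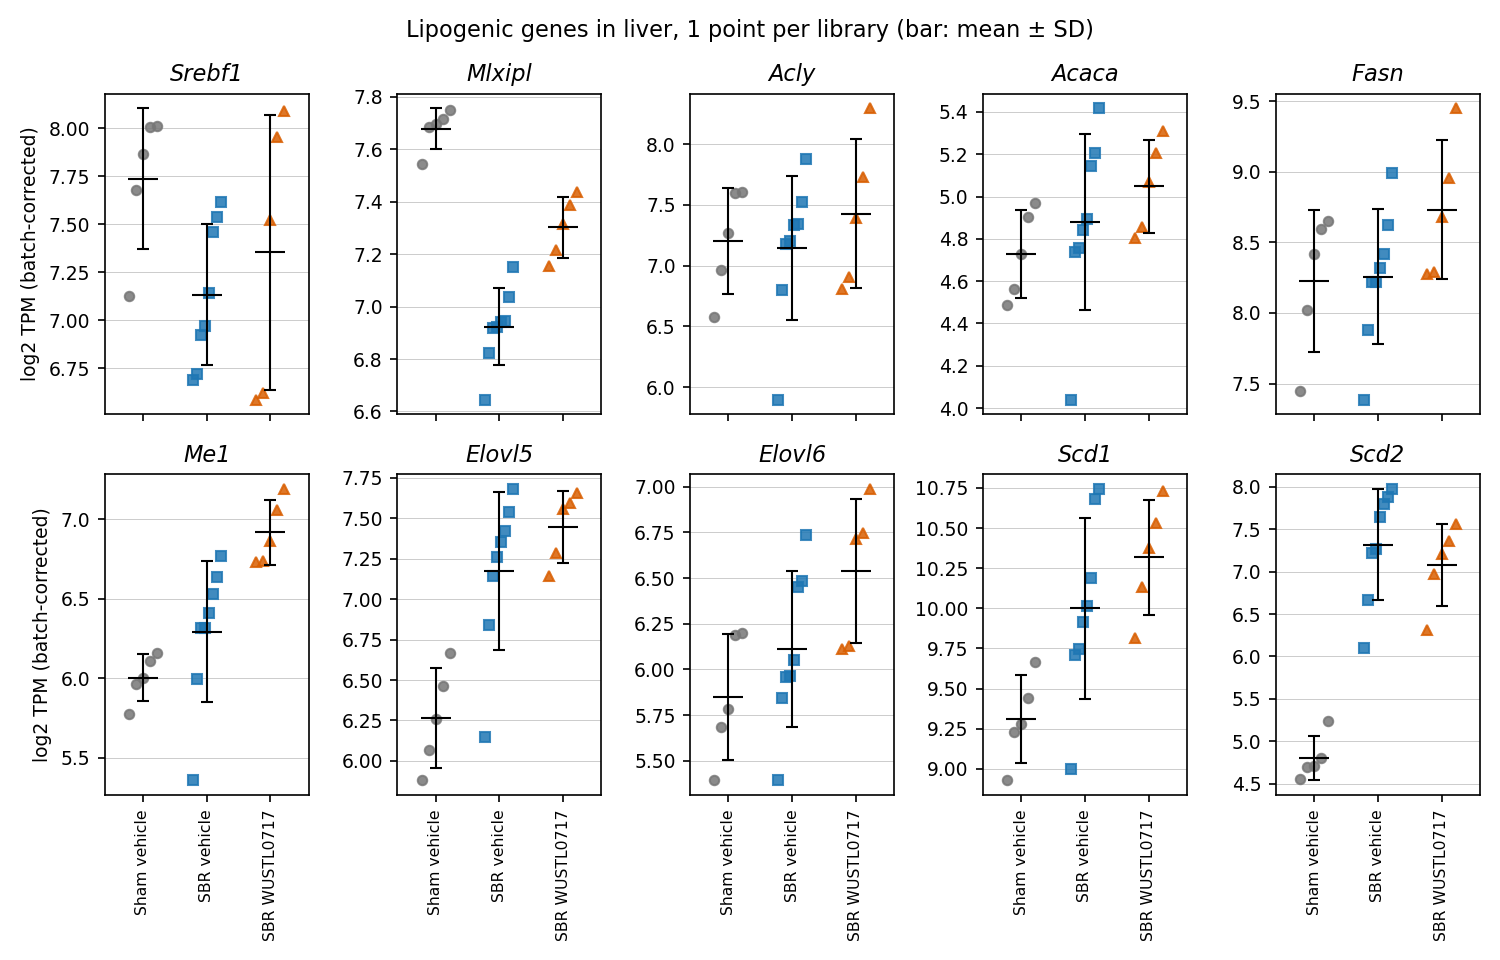
Each panel plots 1 gene in log2 TPM (vertical axis, its own range) in liver for sham vehicle, SBR vehicle and SBR WUSTL0717, with 1 point per library and a bar for the mean ± SD. Mlxipl separates all 3 groups, from a lowest sham value of 7.54 to a highest SBR vehicle value of 7.15, Scd2 is at or below 5.24 in sham and at or above 6.10 after SBR, and Acly, Acaca and Fasn overlap between groups.

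Srebf1 itself was not called in the liver. Its values ran from 7.13 to 8.01 (median 7.86) in sham vehicle, from 6.69 to 7.62 (median 7.06) in SBR vehicle and from 6.59 to 8.09 (median 7.52) in SBR WUSTL0717. SBR vehicle differed from sham by -0.60 ± 0.25 (limma adjusted p = 0.0621), which is -0.85 relative to the median of all genes, and WUSTL0717 from vehicle by 0.22 ± 0.25 with a 95% interval of -0.31 to 0.75. Acly, Acaca and Fasn were not called in any liver comparison. For Fasn the interval of WUSTL0717 against vehicle was -0.06 to 1.01 and for Acaca -0.19 to 0.53. Me1 stood 0.63 ± 0.18 higher with WUSTL0717 than with vehicle, just short of a call (adjusted p = 0.0507), and its treated libraries lay between 6.73 and 7.19 against 5.36 to 6.77 with vehicle. Against sham, the treated livers had 5 members higher, Scd2 (2.28 ± 0.30), Elovl5 (1.18 ± 0.23), Scd1 (1.01 ± 0.26), Me1 (0.92 ± 0.19) and Elovl6 (0.69 ± 0.23), and Mlxipl lower, where 27.9% of genes were called higher and 0.906% lower (4436 to 144, or 1700 to 1420 after centring). Elovl6 lost its call without any of 6 of the 10 libraries (sham 2, 3 and 4, WUSTL0717 2, 3 and 4; limma adjusted p up to 0.104), and stood at 0.39 after centring (adjusted p = 0.189), 0.38 after quantile normalization and 0.33 with library weights, without a call in any of these.

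The rest of the pathway was read from lists of known genes. Among 15 tested further desaturases and elongation enzymes, Scd3, a desaturase of the Scd cluster, rose with WUSTL0717 in the duodenum by 3.18 ± 0.45 (limma adjusted p = 0.0136) and in the ileum by 2.59 ± 0.38 (adjusted p = 0.0323), and no other gene of that list was called there. Leaving out single libraries, the call of Scd3 held in 4 of 8 fits in the duodenum (lost without SBR vehicle library 2, 3 or 4 or WUSTL0717 library 3; adjusted p up to 0.0631) and in the ileum only without WUSTL0717 library 2 (up to 0.151). Of 10 genes that supply citrate, acetyl-CoA or NADPH, 15 that process SREBP or regulate lipogenesis, 8 carbohydrate response targets and 6 of mitochondrial fatty acid synthesis, none was called in either region between WUSTL0717 and vehicle. Their median differences lay between 0.12 and 0.53 (duodenum) and between 0.04 and 0.52 (ileum). Among further targets of SREBP1c and LXR, the cholesterol exporter Abca1 rose by 3.55 ± 0.50 in the duodenum and 2.79 ± 0.34 in the ileum (limma adjusted p = 0.0136 and 0.0165), and Abcg1, which passes cholesterol to HDL, rose by 2.30 ± 0.33 in the ileum (adjusted p = 0.0304). The call of Abca1 held in the duodenum only without WUSTL0717 library 1 or SBR vehicle library 3 (limma adjusted p up to 0.0658), and in the ileum it was lost without SBR vehicle library 1 or 2 or WUSTL0717 library 3 or 4 (up to 0.0826). That of Abcg1 held only without WUSTL0717 library 1 (up to 0.145). With 6 and 7 genes tested, 1 and 2 of this list were called, and all had a positive difference in both regions.

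In the liver after SBR, the elongases moved in opposite directions. Elovl3, which makes very long saturated chains, went from 3.92 to 4.44 in sham vehicle to -0.02 to 1.43 in SBR vehicle and 1.81 to 4.38 in SBR WUSTL0717. It fell by 3.71 ± 0.33 after SBR (limma adjusted p = 1.26e-07) and rose by 2.14 ± 0.33 with WUSTL0717 (adjusted p = 0.0041). Elovl3 lay near 0 in SBR vehicle, and the size of both moved when the pseudocount was changed on the batch-corrected values. It was -2.04 and 0.97 with a pseudocount of 5 and -5.45 and 3.67 with 0.1. Values below 0 were set to 0 in that step, which does not give the original TPM back. Elovl7 moved the opposite way, with a rise of 2.00 ± 0.22 after SBR and a change of -0.80 ± 0.22 with WUSTL0717 (limma adjusted p = 8.48e-07 and 0.0419). The call of Elovl7 with WUSTL0717 held in 3 of 13 fits without 1 library (those without SBR vehicle library 2 or 3 or WUSTL0717 library 4; adjusted p up to 0.164). In that list 7 of 15 genes were called higher and 1 lower after SBR, beside 37.4% and 4.47% of all genes. Of the 10 supply genes 4 were higher and none lower, a share close to that of all genes, among them Pgd (1.34 ± 0.17) and G6pdx (0.80 ± 0.13), the NADPH-making enzymes of the pentose phosphate pathway, and Me2 (0.80 ± 0.15). After centring these were 1.03, 0.50 and 0.49, all still called. Of 8 carbohydrate response targets 1 was higher, the hormone gene Fgf21 (2.64 ± 0.27, or 1.62 with a pseudocount of 5), and 1 lower, the fructose kinase Khk (-0.44, limma adjusted p = 0.0241), and the median of the list was -0.07. Of the 15 SREBP processing and regulatory genes 4 were higher and 2 lower, beside 37.4% and 4.47% of all genes. Their differences ran from -1.36 to 0.88 with a median of -0.01, and 8 of the 15 were negative. Among the higher genes were Srebf2 at 0.67 ± 0.13 and Insig2 at 0.88 ± 0.26, which were 0.36 and 0.57 after centring and still called.

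Members varied together within groups. Over the 45 pairs, the median correlation of deviations from group means was 0.44 in the duodenum (11 libraries), 0.58 in the ileum (11) and 0.72 in the liver (18). Acly and Fasn were the closest pair in the ileum and the liver, at 0.97 in each, and the lowest value in each tissue was that of a pair with Mlxipl. With the hepatocyte marker mean, the members' within-group correlations ran from 0.05 (Mlxipl) to 0.88 (Elovl5) in the liver. In the ileum they ran from -0.45 (Mlxipl) to 0.89 (Me1), and in the duodenum from -0.68 (Srebf1) to 0.27 (Scd1). The part of cell composition in the correlations among members was not tested. All these correlations share libraries and are given as a description, with no test between tissues.

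Across all genes, those most like Srebf1 over the 22 intestinal libraries, each centred on its region, were Abcg1 (Pearson r 0.94), Abcg5, Scd4, Scd3 and Abcg8 (0.91 each). For Fasn they were Thrsp (0.90), Steap4, Igfbp5, 1700045H11Rik and Lpl, down to 0.86. In the 18 liver libraries Srebf1 was most like Cyp2d36-ps (0.91), Abcg8, Gnat1, Slc38a3 and Gm44851, and genes among the most like Fasn were Slc23a1 (0.95), Erg28, Qprt and Acss2. Abcg8 was on the Srebf1 list in both sets of libraries. The likeness includes differences between groups and depends on the same libraries that gave the comparisons.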

How the data were processed

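Duodenum, ileum and liver were profiled by rRNA-depleted RNA-seq. Reads were aligned by the authors with STAR to Ensembl release 101 (GRCm38), and uniquely aligned, unambiguous reads were counted per gene with featureCounts. The authors calculated size factors by the trimmed mean of M-values. For later steps they loaded TPM values and took log2, and it is not stated whether the factors entered these. The 2 batches (22 libraries of the intestine and 18 of the liver) were adjusted with ComBat. The deposited log2 TPM values were used as given. They run from -1.69 to 18.42, and 2752 lie below 0, so a value near 0 is not a count of 0. Since ComBat sets each gene's level and scale across batches, liver and intestine were fitted apart. No read counts were used, so depth per library is unknown and no counting interval was given.

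Groups came from the sample labels. Each tissue was fitted over its 3 groups with limma 3.58.1 (trend on mean level, R 4.3.3) on genes averaging 1 or more in log2 TPM (15093 in duodenum, 15772 in ileum, 15901 in liver). Both gut regions were fitted together (15923 genes) for regional differences and interactions. P-values were adjusted by Benjamini-Hochberg over all genes tested, at a threshold of 0.05. Exact permutation tests over samples were two-sided. Separate animals are not named per library, so p-values measure the spread between these libraries. No 2 libraries held the same values.

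The members and lists were chosen with earlier results of these data known. Genes named were all 10 members, the called genes of the pathway lists, and the 5 genes with the highest Pearson r to Srebf1 and to Fasn. An item under that rule is not reported here. The pathway genes given with values are examples of those called. The steps were tested on simulated data. Alternatives were other filters (none, or a mean of 3), pseudocounts (0.1, 5), centring on library medians, quantile normalization, no variance trend, library weights, a replicate block, an unmoderated test, a fit of only the 2 groups compared, and leaving out each library. Promoters came from a RefSeq table (GRCm38.p6) and gene positions from GENCODE M21. Figures were drawn with matplotlib 3.10.9 in Python 3.11.15.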

Additional observations from a re-analysis of the deposited data

Results flagged for a closer look

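Within groups of 4 or 5 libraries and of 8, a single library stood far from the rest by Dixon's gap test in 6 of the 70 gene and group pairs tested, where chance gives about 1 in 20. In ileal SBR WUSTL0717 library 2 this held for Acaca (7.91), Elovl5 (9.30) and Elovl6 (4.81), each the highest of its 4. That library also had the highest adipocyte and hepatocyte marker levels of its group, and their part was not tested. Among the ileal SBR vehicle libraries, Srebf1 was lowest in library 4 (4.96, with the other 3 between 5.21 and 5.25) and Elovl5 highest in library 3 (7.64). In the duodenum Scd1 was highest in WUSTL0717 library 4 (12.83, with the other 3 between 11.42 and 11.58).

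In 2 members SBR WUSTL0717 and sham vehicle did not overlap in either of 2 tissues and differed with opposite signs. The difference between tissues was not tested for this contrast. Of all tested genes, 12.8% lay wholly below sham in the duodenum, 9.46% wholly above it in the ileum and 0.629% wholly below it in the liver. The median difference of all genes was -0.32, 0.07 and 0.27 in these tissues. Acly differed by -0.92 in the duodenum and 1.61 in the ileum, neither called by limma, and the ileal value was 0.96 without WUSTL0717 library 2. Mlxipl differed by 1.41 in the ileum, without a call, and by -0.38 in the liver, where it was called lower. These values lie in different batches, on scales set apart by the batch adjustment, and are given side by side only.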

How the results depend on the processing

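No called member changed its direction under any alternative or without any single library. The number of called members moved by over 1.5 times as follows. With library weights it went from 0 to 2 for SBR against sham in the duodenum, from 0 to 3 in the ileum, from 2 to 4 for WUSTL0717 against vehicle in the duodenum, from 2 to 4 for WUSTL0717 against sham there, from 1 to 2 for WUSTL0717 against vehicle in the liver, from 3 to 5 between regions in sham mice, and from 0 to 5 and 1 for the regional differences of the SBR and WUSTL0717 effects. With an unmoderated test it was 0 for WUSTL0717 against vehicle in duodenum, ileum and liver, 0 for WUSTL0717 against sham in the duodenum and 1 in the ileum. Fitting only the 2 groups compared gave 0 for WUSTL0717 against vehicle in ileum and liver, 1 against sham in the duodenum and 3 in the ileum. For WUSTL0717 against vehicle, quantile normalization gave 1 in the duodenum, and no filter, a filter at 3, a pseudocount of 5 and centring each gave 2 in the liver. For WUSTL0717 against sham in the duodenum, a filter at 3 and centring each gave 4. The causes were not tested.

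With the replicate number as a block, 1 member was called for WUSTL0717 against vehicle in the duodenum and 0 in the ileum, and 1 and 3 against sham. In none of 12 pairs of groups did every same-numbered pair correlate above 0.1, and at most 2 libraries correlated best with their own number. Most of these pairs set different groups of the same tissue side by side, which are different mice. Between duodenum and ileum, the same number matched best for 2 of 3 sham vehicle, 2 of 4 SBR vehicle and 2 of 4 SBR WUSTL0717 libraries. Same-numbered correlations there ran from -0.14 to 0.47. Whether these libraries share mice cannot be told from this, and the regional fits treated them as separate. Without 1 library, called members ranged from 1 to 3 for WUSTL0717 against vehicle in the duodenum, 0 to 2 in the ileum and 0 to 2 in the liver, and against sham from 1 to 3 in the duodenum and 2 to 6 in the ileum. For SBR against sham in the liver the range was 3 to 5. With read depth unknown, the 3 to 8 libraries a group set the precision.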
